A study of Mus musculus with 48 samples.

Results

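The CXC and CX3C chemokine genes described here are 9 members given by name: the ligands *Cxcl1*, *Cxcl2*, *Cxcl10*, *Cxcl12*, *Cxcl14*, *Cxcl16* and *Cx3cl1*, and the receptors *Cxcr4* and *Ackr3*. They were picked from 46983 genes listed in the count tables by matching Ensembl identifiers to symbols, and all 9 were among the 19970 genes that passed the filter on low counts. RNA came from brain tissue of 3-month-old male C57Black/6 mice in 48 libraries of 11 groups. MCAO, the permanent occlusion of the middle cerebral artery by coagulating and cutting it, was sampled as a stroke model at 3 h, 12 h, 24 h, day 3 and day 7 with 5, 5, 4, 5 and 5 libraries. Each time had 4 sham libraries, from mice given the surgery without coagulation, and 4 control libraries came from intact cortical tissue. The labels name no transgene and no drug for any group. The sources used here differ on the dissection, the methods naming the injured cortical region with affected and unaffected tissue and the design text forebrain hemispheres, so the share of lesion in a library is unknown. Cortical projection neuron markers were present in every library, with a summed level of 353 to 1198 CPM (counts of a gene scaled by edgeR to a common library size), and striatal neuron markers ranged from 85.7 to 2310 CPM, within the control group alone from 345 to 957 CPM. Nothing in the labels says which libraries share a mouse or a day, so the p-values measure the spread between libraries. Gene counts per library ranged from 1522668 to 2826735, and 1 count was worth 0.363 to 0.632 CPM after normalization.

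Chemokines are small secreted or membrane-bound proteins that draw cells along a gradient through G protein-coupled receptors, and the CXC and CX3C families are named for the spacing of their first cysteines. *Cxcl1* and *Cxcl2* encode ligands of CXCR2 and attract neutrophils, and *Cxcl10* encodes an interferon-induced ligand of CXCR3. *Cxcl12* is made constitutively by vascular and other cells and signals through CXCR4, while the atypical receptor ACKR3 scavenges it. CXCL16 and CX3CL1 are made as membrane-bound proteins that proteases shed, and in brain neurons express CX3CL1 while microglia carry its receptor CX3CR1. Several of these genes are known targets of NF-kappa B or of interferon-activated factors, which bind short motifs upstream of the start site.

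Coordinates are from Gencode vM21 on GRCm38, while the study's methods name an earlier Gencode release for the counting. *Cxcl1* spans chr5:90891241-90893115 and *Cxcl2* chr5:90903871-90905938 on the plus strand, and *Cxcl10* chr5:92346638-92348889 on the minus strand. *Cxcl16* spans chr11:70453983-70459984, *Cxcr4* chr1:128588199-128592293 and *Cxcl14* chr13:56288643-56296551, all on the minus strand. *Cxcl12* spans chr6:117168535-117181367, *Ackr3* chr1:90203980-90216751 and *Cx3cl1* chr8:94772009-94782427, all on the plus strand.

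The upstream sequences of *Cxcl1*, *Cxcl2* and *Cxcl10* are shown because they share a motif that the other promoters at hand lacked. RefSeq promoter windows on GRCm38.p6 (250 bases before to 50 after the start) were found for 8 members, all but *Cxcl16*. A kappa B type motif, GGGNNNTTCC or its reverse complement GGAANNNCCC, occurred in 5.56% of 32851 promoters of 27025 genes and in 3 of the 8. The 250 bases before the start are printed from 5′ to 3′ along the gene, with kappa B and interferon response type matches in capitals.
Cxcl1: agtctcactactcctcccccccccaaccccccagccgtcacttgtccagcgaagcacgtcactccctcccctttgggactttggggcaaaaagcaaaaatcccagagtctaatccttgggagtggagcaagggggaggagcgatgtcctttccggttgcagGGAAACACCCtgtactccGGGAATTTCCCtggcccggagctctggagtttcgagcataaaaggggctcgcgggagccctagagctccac
Cxcl2: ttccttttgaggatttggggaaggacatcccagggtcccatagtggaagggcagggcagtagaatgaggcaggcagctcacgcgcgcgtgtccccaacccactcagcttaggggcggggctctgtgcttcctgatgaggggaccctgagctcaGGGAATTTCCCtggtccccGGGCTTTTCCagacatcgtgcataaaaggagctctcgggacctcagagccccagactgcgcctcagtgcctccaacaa
Cxcl10: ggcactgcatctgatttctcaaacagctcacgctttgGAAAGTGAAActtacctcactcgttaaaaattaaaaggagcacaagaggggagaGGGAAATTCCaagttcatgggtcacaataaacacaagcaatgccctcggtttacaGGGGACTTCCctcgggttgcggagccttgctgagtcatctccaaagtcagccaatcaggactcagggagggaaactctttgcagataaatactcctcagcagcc
The *Cxcl1* sequence lies at chr5:90890995-90891244 (plus strand), that of *Cxcl2* at chr5:90903649-90903898 (plus strand) and that of *Cxcl10* at chr5:92348890-92349139 (minus strand). Counted from the start site, the kappa B type matches began at -89, -71 and -70 in *Cxcl1*, at -97, -96 and -78 in *Cxcl2*, and at -159 and -104 in *Cxcl10*. The overlapping pair in *Cxcl1* and in *Cxcl2* is GGGAATTTCC and its neighbour GGAATTTCCC on the other strand. An interferon response type motif, GAAANNGAAA or TTTCNNTTTC, occurred in 3.44% of all promoters and in those of *Cxcl10* (at -213) and *Cxcl14* (at -172). A hypoxia response type motif, ACGTG or CACGT, occurred in 19.6% of all promoters and in that of *Cxcl1* (at -196), apart from its other matches. None of the 3 motifs was found in the windows of *Cxcl12*, *Cxcr4*, *Ackr3* and *Cx3cl1*. A match is a description of letters, and binding was not measured.

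**Figure D1:**
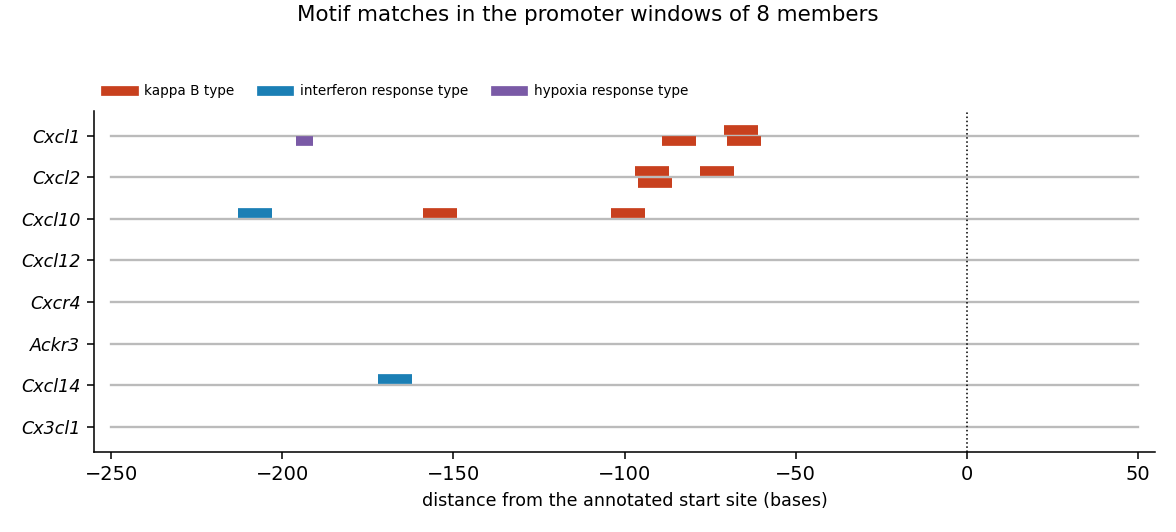
Motif matches in promoter windows of 8 members, drawn against distance from the annotated start site in bases, with matches as written above each line and reverse complements below it. Kappa B type matches lie between -159 and -61 in *Cxcl1*, *Cxcl2* and *Cxcl10*, and the other 5 windows hold none.

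MCAO was set against sham at each time to separate the occlusion from the surgery. A gene was called when its Benjamini-Hochberg adjusted p from edgeR was under 0.01 and its log2 fold change exceeded 0.58 in size. The SE printed here is the size of the log2 fold change divided by the square root of the edgeR F statistic. It restates that test and is not a separate estimate of precision. At 12 h, 1 of 9 members was called (*Cxcl2*), at day 3 there were 3 (*Cxcl2*, *Cxcl16* and *Cxcr4*) and at day 7 there were 2 (*Cxcl16* and *Cxcr4*), all higher after MCAO. At 3 h and at 24 h edgeR called 0 of 9, as did DESeq2, while 5 and 3 members had an unadjusted p under 0.05, as did 8.45% and 8.80% of all genes tested. Of all genes tested, 0.110% were called at 3 h, 0.411% at 12 h, 0.0901% at 24 h, 4.02% at day 3 and 3.50% at day 7. Genes higher after MCAO made up 0.0901%, 0.346%, 0.0801%, 3.76% and 2.07% of the genes tested at these times. Under spike-in scaling the share of called genes that were higher moved from 81.8% to 64.3% at 3 h, from 93.5% to 77.9% at day 3 and from 59.2% to 82.4% at day 7. The median fitted log2 fold change of the 9 members was 2.38, 1.85, 0.56, 3.77 and 2.18 at the 5 times in order, beside 0, 0.01, 0.02, 0.01 and 0.06 for all genes. With members absent from a group set at the lower bound that 3 counts allow, and those with 1 to 3 counts in it at the ratio of their levels, the members' median became 2.46, 1.85, 0.56, 3.56 and, over 8 members, 1.86. Ranges of the MCAO and sham libraries did not overlap for 3, 1, 5, 4 and 3 of the 9 members in turn, beside 3.58%, 3.29%, 5.83%, 7.14% and 10.5% of all genes tested. In these bulk samples fewer cells of a type and less RNA per cell cannot be told apart.

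The neutrophil attractant *Cxcl1* was at 0 counts in all 4 sham libraries at 3 h, 24 h, day 3 and day 7, and was detected in most MCAO libraries up to day 3. At 3 h the MCAO libraries held 3.62, 8.03, 10.9, 3.02 and 1.82 CPM, at least 15.6-fold above the sham group at 0 (edgeR adjusted p = 0.0872). At 24 h they held 1.70, 4.21, 2.97 and 1.83 CPM, at least 6.15-fold above sham (edgeR adjusted p = 0.316). Both times separated MCAO from sham completely, yet neither passed the test. At day 3 the libraries held 1.07, 3.62, 12.0, 0 and 2.64 CPM, at least 11.8-fold above sham (edgeR adjusted p = 0.0182). Replicate C held 60.0% of these counts, and without it the fitted log2 fold change went from 5.99 to 4.96 and did not pass. Without MCAO day 3 replicate A or D the day 3 value passed, with edgeR adjusted p = 0.00992 and 0.00995. At 12 h sham was no longer at 0 (0, 0.521, 1.48 and 0.390 CPM), and MCAO at 0, 0.971, 5.74, 0.588 and 11.3 CPM overlapped it (log2 fold change 2.36 ± 1.13 SE, edgeR adjusted p = 0.323). Replicate E held 57.6% of those counts, and the log2 fold change was 1.35 without it and 3.25 without sham replicate C. At day 7 the 5 MCAO libraries held 2 counts in all. The highest median of the 11 groups was that of control, where libraries A and B held 0 and 1.69 CPM and libraries C and D held 23.7 and 12.6 CPM. Every neighbouring pair in the order of group medians overlapped in range, for *Cxcl1* as for each of the other members.

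*Cxcl2*, the second CXCR2 ligand, was called at 12 h and at day 3, and at both times a single library carried most of its counts. At 12 h sham held 0.559, 0, 0 and 0 CPM, and MCAO held 0, 2.91, 29.2, 12.9 and 366 CPM. Replicate E held 88.0% of the 699 counts of that MCAO group, and replicate A lay at 0 with the shams. The ratio to sham, which had 1 count in all, was 624 (95% counting interval 112 to 24700, edgeR adjusted p = 0.00453). At day 3 sham again held 1 count, and MCAO held 0.534, 0, 141, 0 and 8.81 CPM, with 93.1% of the counts in replicate C (ratio 268, 95% counting interval 47.7 to 10600, edgeR adjusted p = 0.00658). Without MCAO 12 h replicate E the fitted log2 fold change went from 8.87 to 5.98 and the call was lost (edgeR adjusted p = 0.0890). Without MCAO day 3 replicate C that of day 3 went from 7.45 to 3.87 and was lost too (edgeR adjusted p = 0.348). Leaving out any 1 of the 4 sham libraries also ended the calls, with edgeR adjusted p from 0.0162 to 0.0304 at 12 h and from 0.0238 to 0.0306 at day 3. With the replicate letter as a block the values were 0.0287 at 12 h and 0.0231 at day 3. At 3 h the counts were spread over more libraries, with 43.2% in the highest. MCAO held 5.43, 9.45, 6.29, 15.1 and 0.911 CPM, above all sham libraries (0, 0, 0 and 0.545 CPM), a ratio of 63.2 (95% counting interval 11 to 2530, edgeR adjusted p = 0.466). At 24 h the 4 MCAO libraries (2.12, 1.40, 1.70 and 4.89 CPM) still lay above sham (0, 1.26, 0.610 and 0 CPM), without passing (edgeR adjusted p = 0.813). At day 7 the ranges overlapped, with up to 6.72 CPM after MCAO. Counting intervals cover counting error only.

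**Figure D2:**
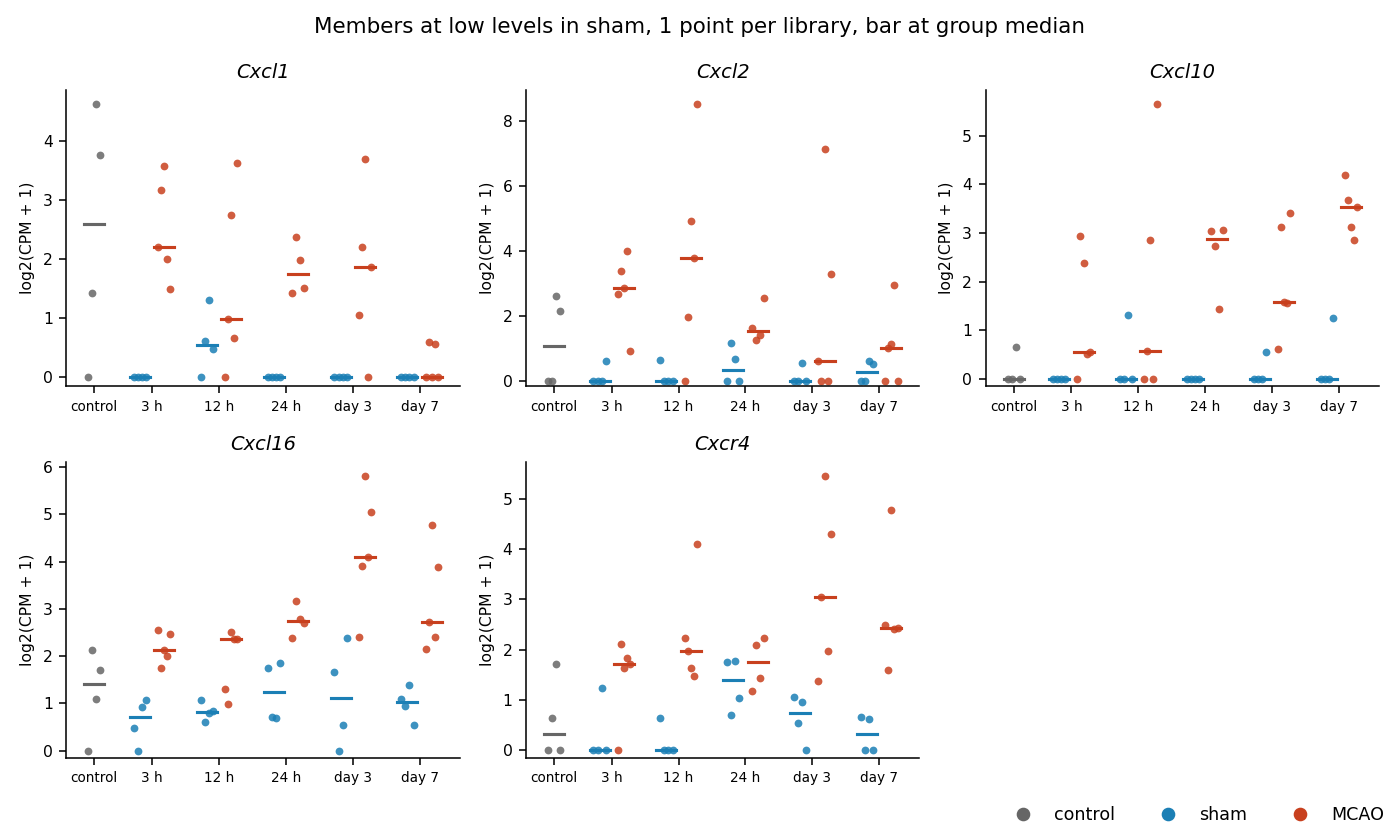
Levels of *Cxcl1*, *Cxcl2*, *Cxcl10*, *Cxcl16* and *Cxcr4* as log2(CPM + 1) in the 48 libraries, with 1 point per library and a bar at each group median, by time after surgery. Sham libraries lie at or near 0 for *Cxcl1*, *Cxcl2* and *Cxcl10*, and single MCAO libraries stand far above their group for *Cxcl2* at 12 h (366 CPM) and day 3 (141 CPM).

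Granulocyte markers were highest in the libraries that led for *Cxcl2*. The summed level of 7 markers (*S100a8*, *S100a9*, *Retnlg*, *Mmp8*, *Camp*, *Ngp* and *Csf3r*) was 1701 CPM in MCAO 12 h replicate E and 623 CPM in MCAO day 3 replicate C. No other library exceeded 176 CPM, and shams held 0 to 9.41 CPM. The sum lay above sham in every MCAO library at each time. *Cxcl1* and *Cxcl2* did so too at 3 h (sum 10.3 to 61.2 against 1.09 to 9.41 CPM) and at 24 h (31.0 to 56.8 against 4.20 to 7.59 CPM). Both genes overlapped sham at 12 h (sum 11.5 to 1701 against 2.79 to 3.33 CPM) and day 3 (6.41 to 623 against 0 to 3.63 CPM). They also overlapped it at day 7 (sum 5.77 to 29.15 against 0.912 to 4.58 CPM). *S100a8*, the most abundant of the list over all libraries, and *S100a9* encode the calprotectin subunits of neutrophils. Both rose at 12 h (*S100a8* log2 fold change 7.50 ± 1.25 SE, edgeR adjusted p = 0.000363) and at day 3 (*S100a8* 6.96 ± 1.36 SE, edgeR adjusted p = 0.000415), making 2 of 7 called at both times and 0 of 7 at 3 h, 24 h and day 7. No marker of the list was at 0 throughout either MCAO group, and the part of the cells that carry them in the *Cxcl2* result was not tested. *Cxcr2*, the receptor of both ligands, held 0 counts in sham at 12 h, 24 h, day 3 and day 7 against 40, 9, 26 and 5 counts after MCAO, at least 11.9-fold higher at 12 h (edgeR adjusted p = 0.110) and at least 7.66-fold higher at day 3 (edgeR adjusted p = 0.0874).

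*Cxcl10*, the interferon-induced T cell attractant, had its highest group median at day 7, unlike the neutrophil attractants. At day 7 MCAO held 17.3, 11.7, 7.73, 6.24 and 10.7 CPM and sham held 0, 0, 0 and 1.37 CPM, without overlap. The ratio was 28.0 (95% counting interval 9.29 to 138, edgeR adjusted p = 0.0160), short of the threshold. At 24 h MCAO held 7.22, 5.61, 1.70 and 7.33 CPM over a sham group at 0, at least 12.0-fold higher (edgeR adjusted p = 0.204). At day 3 MCAO held 0.534, 7.68, 2.00, 1.95 and 9.70 CPM and sham 0, 0, 0 and 0.469 CPM (ratio 42.4, 95% counting interval 7.26 to 1710, edgeR adjusted p = 0.0466). All 3 of these times placed every MCAO library above every sham, but at day 3 the lowest MCAO and the highest sham library held 1 count each and differed in CPM only by library size. The early times were uneven: at 3 h the MCAO libraries held 0, 6.62, 4.20, 0.431 and 0.456 CPM over sham at 0, and at 12 h 0, 0.485, 6.26, 0 and 49.4 CPM over sham at 0, 0, 1.48 and 0 CPM (log2 fold change 4.47 ± 1.22 SE, edgeR adjusted p = 0.0493). The 12 h group owed 86.5% of its counts to replicate E, the library that also led for *Cxcl2*. The 12 h log2 fold change was 1.77 without MCAO replicate E and 7.45 without sham replicate C, which held all sham counts, and neither refit passed. With no filter on low counts *Cxcl10* passed at 12 h, day 3 and day 7 (edgeR adjusted p = 0.0054, 0.00983 and 0.00168).

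Of 8 other interferon-stimulated genes, 0 were called at 3 h, 1 at 12 h (*Rsad2*), 0 at 24 h, 3 at day 3 (*Irf7*, *Ifit3* and *Oasl2*) and 4 at day 7 (*Isg15*, *Ifit1*, *Ifit3* and *Oasl2*), all higher after MCAO. *Rsad2*, which encodes the antiviral enzyme viperin, rose by 3.65 ± 0.75 SE on the log2 scale at 12 h (edgeR adjusted p = 0.00589). *Isg15*, a ubiquitin-like modifier, rose by 3.86 ± 0.98 SE at day 7 (edgeR adjusted p = 0.00838). *Oasl2*, of the oligoadenylate synthetase family, rose by 2.29 ± 0.44 SE at day 3 and by 2.56 ± 0.45 SE at day 7 (edgeR adjusted p = 0.000338 and 0.000216). The median log2 fold change of the list was 0.98, 2.44, 1.67, 2.35 and 2.3 at the 5 times in order. Its summed level was 436 CPM in MCAO 12 h replicate E. The median of that group was 40.6 CPM and its lowest library, at 24.85 CPM, lay below all its shams (29.6 to 34.1 CPM). In the 5 MCAO day 7 libraries the sum was 91.0 to 180 CPM, against 30.0 to 57.0 CPM in their shams. T and NK cell markers stayed near the detection limit, with 2 of 5 markers at 0 throughout the MCAO day 7 group and a highest summed level of 4.16 CPM in any library. The receptor *Cxcr3* was under the filter of more than 10 counts over all libraries and was not tested.

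*Cxcl16*, a membrane-bound ligand of CXCR6, was called at day 3 and day 7. At day 3 MCAO held 4.27, 14.0, 55.4, 16.1 and 32.2 CPM and sham held 2.18, 0, 0.467 and 4.22 CPM. Every MCAO library lay above every sham in CPM, but the lowest MCAO library held 8 counts and the highest sham 9, so their order rested on library size. The log2 fold change was 3.77 ± 0.64 SE (13.7-fold, edgeR adjusted p = 5.29e-05). At day 7 MCAO held 3.46, 5.60, 26.2, 4.32 and 13.8 CPM and sham held 1.14, 0.933, 1.64 and 0.456 CPM (log2 fold change 3.29 ± 0.72 SE, edgeR adjusted p = 0.00232). The day 7 call was lost without MCAO replicate C (edgeR adjusted p = 0.0241), without sham replicate B (0.0106) and without sham replicate D (0.0197), while the day 3 call held under every alternative run, with adjusted p up to 0.00909. The log2 fold change was 4.58 at day 3 without sham replicate D and 2.64 at day 7 without MCAO replicate C. Earlier, *Cxcl16* lay above all shams in every MCAO library at 3 h (2.36 to 4.82 CPM against 0 to 1.09) and at 24 h (4.25 to 7.95 CPM against 0.610 to 2.62), and at 12 h in 4 of 5. These differences of 2.46 ± 0.84, 1.85 ± 0.73 and, at 12 h, 1.85 ± 0.81 SE on the log2 scale did not pass (edgeR adjusted p = 0.303, 0.405 and 0.267). Its receptor *Cxcr6* was under the filter on low counts.

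*Cxcr4*, the receptor of CXCL12 on leukocytes and progenitor cells, was called at day 3 and day 7. At day 3 MCAO held 1.6, 7.23, 43.0, 2.93 and 18.5 CPM and sham held 1.09, 0.462, 0.934 and 0 CPM (log2 fold change 4.38 ± 0.91 SE, 20.8-fold, edgeR adjusted p = 0.000837). At day 7 MCAO held 4.62, 2.04, 26.2, 4.32 and 4.38 CPM and sham, with 2 counts in all, held 0.572, 0, 0.545 and 0 CPM (ratio 31.5, 95% counting interval 8.4 to 265, edgeR adjusted p = 0.00417). Ranges did not overlap at either time, although at day 3 the lowest MCAO and the highest sham library held 3 counts each. Replicate C held 56.2% of the MCAO counts at day 3 and 61.1% at day 7. Without it the log2 fold change was 3.45 at day 3 (edgeR adjusted p = 0.0145) and 3.61 at day 7 (edgeR adjusted p = 0.0496). The day 7 call was also lost without sham replicate A, B or D (edgeR adjusted p = 0.0105, 0.0212 and 0.0286). At 12 h all 5 MCAO libraries (1.77 to 16.1 CPM) lay above sham (0 to 0.559 CPM), with edgeR adjusted p = 0.0294 and 0.00789 by DESeq2. At 3 h and 24 h the groups overlapped (0 to 3.31 against 0 to 1.35 CPM, and 1.28 to 3.67 against 0.632 to 2.44 CPM).

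The libraries that led for *Cxcl16* and *Cxcr4* also led for markers of myeloid cells. The summed level of 5 monocyte and peripheral macrophage markers was 884 CPM in MCAO day 3 replicate C, 752 CPM in MCAO day 3 replicate E and 4031 CPM in MCAO day 7 replicate C. It did not exceed 274 CPM in any other library and was 2.88 to 16.4 CPM in the shams. At day 3, 3 of 5 of these markers rose (*Ccr2*, *Plac8* and *Lyz2*) and at day 7, 2 of 5 (*Plac8* and *Lyz2*). *Lyz2*, the macrophage and granulocyte lysozyme and the most abundant of the list over all libraries, rose by 5.39 ± 0.91 SE on the log2 scale at day 3 (edgeR adjusted p = 4.95e-05). The summed level of 8 microglia and macrophage markers was 2551 and 2311 CPM in day 3 replicates C and E and 3534 CPM in day 7 replicate C, against 254 to 389 CPM in shams of all times. Of these 8 markers, 6 rose at day 3 and 4 at day 7, among them *C1qa*, a complement subunit (3.34 ± 0.42 SE at day 3, edgeR adjusted p = 2.32e-07). At 12 h the only call among the 8 was *P2ry12*, which was lower after MCAO, and 3 h and 24 h had 0 calls. *Csf1r* was the most abundant of that list. None of the markers of either list was at 0 throughout an MCAO group at 12 h or later. The part of these cells in the *Cxcl16* and *Cxcr4* results was not tested.

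**Figure D3:**
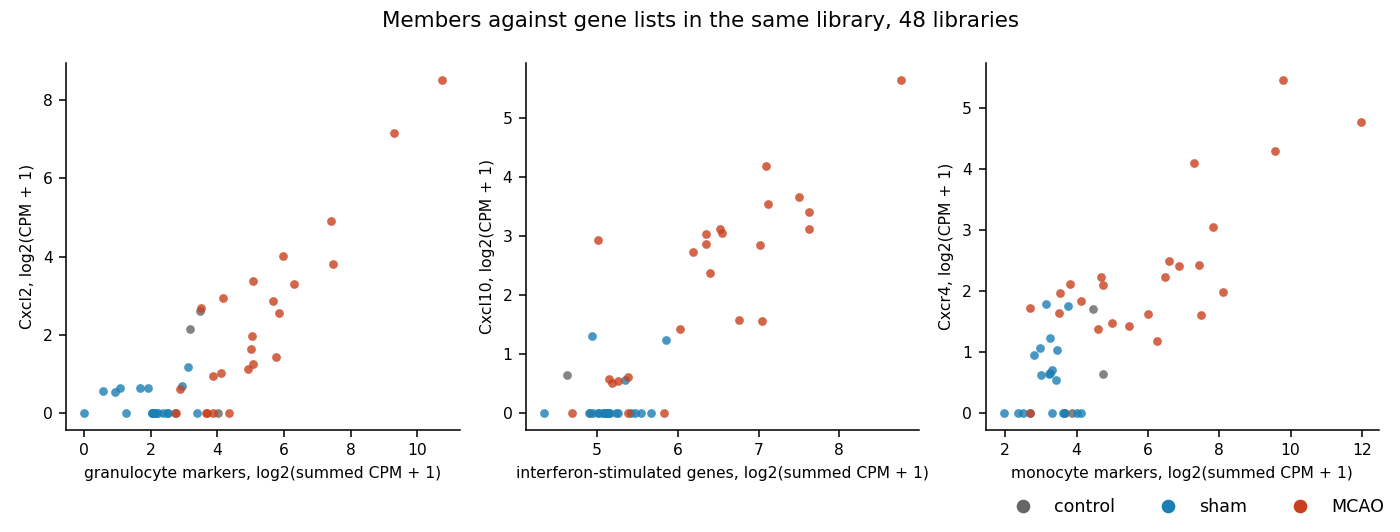
Level of a member, log2(CPM + 1), against the summed level of a gene list in the same library, log2(summed CPM + 1), for 48 libraries: *Cxcl2* against 7 granulocyte markers, *Cxcl10* against 8 interferon-stimulated genes and *Cxcr4* against 5 monocyte and peripheral macrophage markers. The libraries highest for the member are also at the upper end of the list, such as MCAO 12 h replicate E with 366 CPM of *Cxcl2* and 1701 CPM of granulocyte markers.

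*Cxcl12*, the constitutive ligand of CXCR4 and ACKR3, was present in every library and was called in no comparison. Control held 67.0, 72.5, 62.1 and 46.8 CPM. Its largest fitted difference from sham was at 12 h, with 36.0, 24.3, 28.7, 20 and 37.5 CPM against 37.4, 42.8, 42.2 and 47.9 CPM, where only the highest MCAO library reached the lowest sham (log2 fold change -0.54 ± 0.27 SE, edgeR adjusted p = 0.347). At 24 h MCAO held 61.6, 33.2, 32.2 and 15.3 CPM and sham 60.0, 58.2, 42.1 and 28.8 CPM, which overlapped. At day 3, 4 of 5 MCAO libraries lay below all shams and 1 above them. At that time (39.6 to 78.0 against 57.2 to 63.2 CPM) and day 7 (43.8 to 99.4 against 34.7 to 90.5 CPM) the log2 differences were -0.11 ± 0.26 and -0.04 ± 0.26 SE. Among the groups the medians ran from 64.5 CPM in control to 28.7 CPM in MCAO at 12 h. Endothelial markers, known from cells that make *Cxcl12*, had summed levels of 182 to 292 CPM in MCAO at 12 h and 234 to 322 CPM in sham, and 1 of 6 fell there (*Slco1a4*, a transporter of the blood-brain barrier, -1.12 ± 0.22 SE, edgeR adjusted p = 0.00349). The part of endothelial cells in the *Cxcl12* level was not tested.

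*Ackr3*, the scavenger of CXCL12, was likewise called nowhere. Its largest difference was at day 7, where MCAO held 15.0, 7.63, 10.7, 13.0 and 15.0 CPM and sham held 5.15, 5.60, 9.81 and 8.67 CPM. There 4 of 5 MCAO libraries lay above all shams (log2 fold change 0.74 ± 0.38 SE, edgeR adjusted p = 0.233). At the other times the log2 difference lay between -0.06 and 0.23 with SE of 0.36 to 0.41, and its sign at 12 h, 24 h and day 3 flipped under spike-in scaling. *Cxcl14*, a ligand made constitutively in brain and epithelia, was also called at no time against sham. Its log2 differences from sham were -0.11 ± 0.18, 0.06 ± 0.18, -0.16 ± 0.19, 0.12 ± 0.18 and -0.32 ± 0.18 SE at the 5 times in order, and those at 12 h and day 3 turned negative under spike-in scaling. At day 7 MCAO held 44.4, 89.1, 70.2, 89.3 and 75.8 CPM and sham held 99.0, 83.5, 94.9 and 91.7 CPM (edgeR adjusted p = 0.288).

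*Cx3cl1*, the neuronal ligand of the microglial receptor CX3CR1, had a lower fitted level after MCAO than in sham at each time but was called at none, and the day 7 difference turned positive when 1 library was left out (up to 0.08, without sham replicate A). At day 3 MCAO held 612, 587, 378, 557 and 452 CPM and sham held 780, 751, 713 and 923 CPM. All 5 MCAO libraries lay below all 4 shams (log2 fold change -0.62 ± 0.23 SE, edgeR adjusted p = 0.0948). At 24 h MCAO at 467, 526, 437 and 608 CPM was also below every sham (630, 626, 722 and 611 CPM), with 608 and 611 CPM as the closest pair (log2 fold change -0.35 ± 0.25 SE, edgeR adjusted p = 0.720). At 12 h MCAO held 340, 485, 280, 179 and 508 CPM, but sham replicate A at 252 CPM reached into that range below the other shams at 568, 726 and 694 CPM (log2 fold change -0.65 ± 0.23 SE, edgeR adjusted p = 0.163). At 3 h and day 7 the differences were -0.14 ± 0.23 and -0.10 ± 0.23 SE, and the groups overlapped. The day 7 MCAO libraries held 646, 561, 365, 604 and 562 CPM, and sham held 795, 540, 748 and 269 CPM. Without sham replicate D, the lowest of these, the day 7 log2 difference was -0.36. The group medians ran from 765 CPM in sham at day 3 to 340 CPM in MCAO at 12 h. Of 7 neuron markers, 1 fell at day 3 (*Snap25*, a synaptic membrane protein, -0.67 ± 0.16 SE, edgeR adjusted p = 0.0043) and 1 at day 7 (*Rbfox3*, a neuronal splicing factor, -0.87 ± 0.16 SE, edgeR adjusted p = 0.000387). The summed level of the 7, with *Syt1* the most abundant, was 4636 to 7195 CPM in MCAO and 7075 to 8249 CPM in sham at day 3. It was 6080 to 7389 against 6728 to 7481 CPM at 12 h and 5663 to 7145 against 6724 to 8195 CPM at 24 h. At day 7, the time of the -0.10 difference in *Cx3cl1*, it was 4026 to 6888 against 6853 to 7686 CPM. No neuron marker was at 0 in any group, and the part of neuron number in the *Cx3cl1* level was not tested.

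The receptor *Cx3cr1* rose at day 3 (log2 fold change 1.77 ± 0.29 SE, 3.41-fold, edgeR adjusted p = 3.77e-05) and at day 7 (1.26 ± 0.29 SE, edgeR adjusted p = 0.00355), at times when the microglia markers described above rose too. *Adam17*, a sheddase of CX3CL1, rose by 1.28 ± 0.28 SE at day 3 and by 1.21 ± 0.29 SE at day 7 (edgeR adjusted p = 0.00127 and 0.00453). *Mmp9*, a gelatinase that also cuts CXC ligands, rose at day 3 (3.04 ± 0.74 SE, edgeR adjusted p = 0.00493). Of the 5 proteases in the list, 2 were called at day 3 and 1 at day 7, with a median log2 fold change of 1.28 and 1.21, and 0 at the other times. *Adam10*, the other main sheddase of CX3CL1 and CXCL16, was at 0.60 ± 0.17 SE at day 7 (edgeR adjusted p = 0.0209), and *Mmp2* and *Dpp4*, the peptidase that trims CXCL10 and CXCL12, did not pass either.

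**Figure D4:**
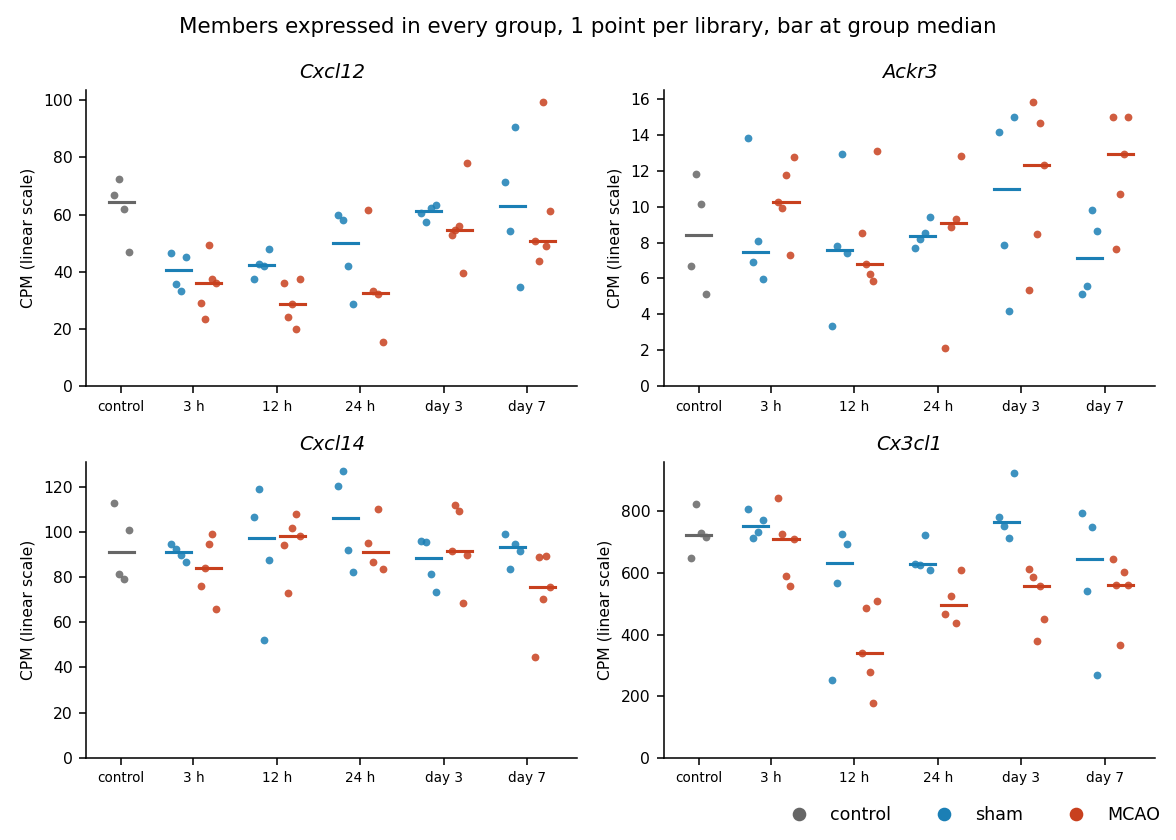
Levels of *Cxcl12*, *Ackr3*, *Cxcl14* and *Cx3cl1* in CPM on a linear axis from 0 in the 48 libraries, with 1 point per library and a bar at each group median. *Cx3cl1* in MCAO lies below all sham libraries at day 3 (378 to 612 against 713 to 923 CPM), and *Cxcl12* at 12 h lies mostly below sham.

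Among the remaining ligands of the family, 7 of 9 could be tested and 2 rose at day 3, with 0 called at the other times. *Pf4*, the platelet factor that macrophages also express, rose by 3.96 ± 0.68 SE on the log2 scale at day 3 (edgeR adjusted p = 6.78e-05). *Cxcl5*, another ligand of CXCR2, had 50 counts in MCAO against 0 in sham at day 3, at least 14.7-fold higher (edgeR adjusted p = 0.0012). *Ppbp*, a platelet ligand of CXCR2, held 0 counts in sham at all times and 19, 12, 6, 8 and 2 counts after MCAO, and did not pass (smallest edgeR adjusted p = 0.13, at day 3). *Cxcl9*, an interferon-induced ligand of CXCR3 like *Cxcl10*, held 22 against 3 counts at day 7 (edgeR adjusted p = 0.139). The median of the list was 3.68 at day 3, and 2.19 over 6 genes with those absent from sham at their bound and those with 1 to 3 counts in sham at the ratio of their levels. Of the 7 remaining receptors, 3 were tested, and *Cx3cr1* was the only call at day 3 and day 7. *Ackr1*, the decoy receptor of red cells and venules, was at 0.14 to 0.41 (log2) at the 5 times and passed at none, while hemoglobin genes rose (1 of 5 erythroid genes at 12 h, 3 of 5 at day 3 and 4 of 5 at day 7). The summed erythroid level was 180 to 627 CPM in MCAO and 10.4 to 97.3 CPM in sham at 3 h, and 69.7 to 1416 against 15.6 to 138 CPM at 12 h, and the part of blood in the early *Cxcl1*, *Cxcl2* and *Cxcl10* results was not tested.

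Genes of the pathways tied to the promoter motifs were read in the same fits. Of 8 inhibitors, subunits and targets of the NF-kappa B pathway, 3 rose at day 3, namely *Nfkb2* (3.29 ± 0.83 SE, edgeR adjusted p = 0.00723), *Bcl3*, a nuclear co-activator (ratio 69.4, 95% counting interval 18.9 to 578, edgeR adjusted p = 3.03e-05), and *Icam1*, an endothelial adhesion molecule (3.94 ± 0.77 SE, edgeR adjusted p = 0.0004). The other times had 0 calls, and the list medians were 0.78, 1.30, 1.08, 1.17 and 1.27 in order. Its sum lay above sham in every MCAO library at 3 h (230.5 to 292.8 against 117.7 to 201.7 CPM). The same held at day 7 (181.7 to 305.8 against 109.9 to 151.5 CPM), while the groups overlapped at 12 h, 24 h and day 3. The summed level of the list, 643 CPM in MCAO 12 h replicate E and 685 CPM in MCAO day 3 replicate C, did not exceed 353 CPM in any other library. In control it was 145 and 158 CPM in replicates A and B and 262 and 216 CPM in replicates C and D, the control libraries highest for *Cxcl1*. Of 9 targets of hypoxia-inducible factors, 1 rose, *Adm* (adrenomedullin, a vasodilator) at 12 h (3.08 ± 0.59 SE, edgeR adjusted p = 0.00209), and the list medians were between 0.06 and 0.51. The summed level of these targets lay above sham in every MCAO library at 3 h (485.5 to 572.2 against 414.8 to 442.7 CPM). It did so at 24 h too (494.5 to 543.2 against 400.1 to 450.4 CPM), and overlapped sham at 12 h, day 3 and day 7. The part of either pathway in the member results was not tested.

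Against control, MCAO was compared at 24 h, day 3 and day 7, since the study used intact tissue as its reference. The percentages of genes called were 0.280%, 3.10% and 1.50%, and the members called were 0, 2 and 0 of 9 by edgeR, with 4 members at an unadjusted p under 0.05 at 24 h and at day 7, beside 2199 of the 19970 genes tested at 24 h and 2982 (14.9%) at day 7. DESeq2 called 0 at 24 h and 1 at day 7. *Cxcl16* at day 3 was 3.8 ± 0.66 SE above control on the log2 scale (edgeR adjusted p = 0.000122) and *Cxcr4* 4.26 ± 0.94 SE (edgeR adjusted p = 0.00207). The *Cxcr4* log2 fold change was 3.33 without MCAO day 3 replicate C and 5.88 without control replicate C. The *Cxcr4* call was lost without MCAO day 3 replicate C (edgeR adjusted p = 0.0293) and without control replicate A, B or D (0.0162, 0.0125 and 0.0156). Under spike-in scaling 50.3% of the genes called at day 3 were higher, against 90.6% in the main scaling. *Cxcl10* at day 7 lay above every control library (ratio 75.2, 95% counting interval 13.2 to 3000, edgeR adjusted p = 0.0197). *Cxcl1* at day 7 was below control with 2 against 67 counts (ratio 0.0234, 95% counting interval 0.00277 to 0.0878, edgeR adjusted p = 0.0113), and passed without control replicate A (0.00810) or B (0.00984), both of them low for *Cxcl1*. Without control replicate C, the highest for *Cxcl1*, its fitted log2 fold change went from -5.09 to -4.10. *Cx3cl1* lay below all controls at 24 h, day 3 and day 7, with log2 differences of -0.52 ± 0.25, -0.50 ± 0.23 and -0.41 ± 0.23 SE (edgeR adjusted p = 0.429, 0.217 and 0.415). The comparisons with control and those with sham share the MCAO libraries and are not independent of each other.

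Sham was compared with control at each time for the effect of surgery and anaesthesia. None of the 9 members was called at 3 h, 12 h, 24 h, day 3 or day 7 by edgeR or DESeq2, with 2, 1, 1, 1 and 1 at an unadjusted p under 0.05, beside 3.69%, 5.43%, 4.31%, 3.66% and 8.03% of all genes tested. The percentages of all genes called were 0.00%, 0.0351%, 0.0100%, 0.00% and 0.00%. *Cxcl1* was at least 26.2-fold, 21.4-fold, 29.0-fold and 24.9-fold lower in sham than in control at 3 h, 24 h, day 3 and day 7 (edgeR adjusted p = 0.393, 0.158, 0.242 and 0.413), on the counts of control replicates C and D. *Cxcl12* in sham at 3 h (46.7, 35.7, 33.2 and 45.2 CPM) lay below every control library, without passing (-0.63 ± 0.28 SE, edgeR adjusted p = 1). The summed level of 5 mural (vessel wall) cell markers was 90.5 to 118 CPM in sham at 3 h and 139 to 153 CPM in control. Their median log2 fold change was -0.94, with 0 of 5 called, and the part of these cells in the *Cxcl12* level was not tested.

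A change in the MCAO effect from one time to the next was tested as a difference of differences. None of the 9 members was called between 3 h and 12 h, 12 h and 24 h, 24 h and day 3, or day 3 and day 7 by edgeR or DESeq2 (0, 1, 1 and 0 at an unadjusted p under 0.05, beside 7.12%, 5.08%, 8.82% and 16.2% of all genes), and the smallest edgeR adjusted p was 0.399. Of all genes, 0.0100%, 0.0100%, 0.0100% and 0.00% were called. The calls at 12 h, day 3 and day 7 against sham are therefore not shown to differ from the effects at the neighbouring times. For members with sham at or near 0 counts these tests had little power to show a change. *Cxcl1* had an SE of 2418 from 24 h to day 3 and of 14910 from day 3 to day 7. The SE of *Cxcl2* was 4.54 to 6.84 over the changes.

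Across the 48 libraries, the genes most like each member were taken by Pearson's r of log2(CPM + 1) among genes with a mean of at least 2 CPM. The libraries share time points and lesion content, so these values are a description. *Cxcl1* was most like *Ier3* and *Cxcl2* (both 0.72), and *Cxcl2* most like *S100a8*, *Hcar2* and *Il1b* (0.87 each). *Cxcl10* was most like *Rsad2* (0.85), *Oasl2* and *Iigp1* (both 0.82). *Cxcl16* was most like *Fcgr3* (0.91), *Fyb* (0.87) and *Apobec3* (0.86), and *Cxcr4* most like *Cd93*, *Fcgr3* (both 0.87) and *Plac8* (0.86). *Cx3cl1* was most like *Slc12a5*, the neuronal chloride exporter, and *Lrp12* (both 0.89). *Cxcl12* went with *Pltp* (0.72), *Itm2a* (0.70) and *Gkn3* (0.66), *Cxcl14* with *Spats2* and *Arhgef25* (both 0.71), and *Ackr3* with *Cep85*, *Ppp1r14b* and *Hes1* at only 0.55. By Spearman's rho in place of Pearson's r fewer than 2 of the 3 most alike genes were kept for 7 of the 9 members, all but *Cxcl1* (2 kept) and *Cxcl12* (3 kept). *Cxcl2* was then most like *Ccl3* (0.72), *Cxcl1* and *Hcar2* (both 0.71), and for *Cxcl10* (*Cst7* at 0.81, *Cd53* at 0.79 and *Trim30a* at 0.78) and *Cxcr4* (*Ccl6* at 0.81, *Ifitm3* at 0.80 and *Cd63* at 0.79) all 3 genes were others.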

How the data were processed

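RNA from 48 libraries (QuantSeq 3′ kit, 92 spike-ins) was aligned by the authors to GRCm38 with STAR 2.5.2b and counted per gene with HTSeq, per the submitters' processing notes and the study's methods. The deposited values are whole-number counts per gene and library. A normalized matrix was not used here. No pair of libraries held identical counts. Libraries were grouped by the condition and time in the labels. Counts of genes with more than 10 counts in all were fitted with edgeR 4.0.16 (R 4.3.3, TMM scaling, quasi-likelihood test, 1 coefficient per group over all libraries) and adjusted by Benjamini-Hochberg over 19970 genes in each of 17 comparisons. A call needed adjusted p under 0.01 and a log2 fold change above 0.58 in size. CPM used TMM library sizes. Against a group at 0, the fold is a bound computed with 3 counts over that group, and against 1 to 3 counts a ratio with an exact 95% interval. Depth was 1522668 to 2826735 gene counts, median 1935856, and spike-ins made up a median of 4.39%. Alternatives were DESeq2 1.42.0, its size factors, spike-in scaling, no filter, only the compared groups, the replicate letter as a block, each library left out, and Spearman in place of Pearson. The scripts were tested on simulated data. Named genes are the 9 members, the genes of the lists and the 3 genes most like each member. Members and lists were chosen with earlier results of these data known, and 1 gene of the lists is not reported here. Promoters came from RefSeq. Protein sequences were not analysed here. Summaries and plots used Python 3.11.15 with numpy 2.4.6, pandas 2.3.3, scipy 1.17.1 and matplotlib 3.10.9.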

Additional observations from a re-analysis of the deposited data

Results flagged for a closer look

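In groups of 4 or 5 libraries, 7 of the 77 member and group pairs tested had a single library far from the others by Dixon's criterion. Chance flags about 1 in 20 where values are normally distributed. Levels resting on a few counts are not, so the number flagged cannot be set against that rate. The other 22 of the 99 pairs had no library above 3 counts. *Cxcl2* stood apart in MCAO 12 h replicate E (366.3 CPM, the others 0 to 29.2 CPM), in MCAO day 3 replicate C (140.8 CPM, the others 0 to 8.81 CPM) and in MCAO day 7 replicate D (6.718 CPM, the others 0 to 1.19 CPM). *Cxcl10* stood apart in MCAO 12 h replicate E (49.43 CPM, the others 0 to 6.26 CPM) and in sham 12 h replicate C (1.479 CPM, the others at 0). *Cxcr4* stood apart in MCAO 12 h replicate E (16.08 CPM, the others 1.77 to 3.71 CPM) and in MCAO day 7 replicate C (26.18 CPM, the others 2.04 to 4.62 CPM). MCAO 12 h replicate E was thus the library apart for 3 members.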

How the results depend on the processing

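Calls of members against sham changed as follows, beside those given with the results. With only the compared groups the calls of *Cxcl2* at 12 h and day 3 (edgeR adjusted p = 0.119 and 0.0518), *Cxcr4* at day 3 and day 7 (0.0154 and 0.0135) and *Cxcl16* at day 7 (0.0129) were lost, as were *Cxcl16* and *Cxcr4* against control at day 3 (0.0113 and 0.0325), and *Cxcl2* at 3 h (0.00908) and *Cxcl10* at day 7 (0.00267) passed. Without the filter *Cxcl1* at 3 h and day 3 (edgeR adjusted p = 0.00756 and 0.00266), *Cxcr4* at 12 h (0.00434) and *Cxcl1* against control at day 7 (0.000618) passed. *Cxcl1* passed at day 3 by DESeq2 (adjusted p = 0.0084) and against control at day 7 under spike-in scaling (edgeR adjusted p = 0.00702). Signs against sham turned only for the small, uncalled differences that follow. Under spike-in scaling *Cxcl14* went to -0.052 at 12 h and -0.12 at day 3, and *Ackr3* to -0.14 at 12 h, 0.063 at 24 h and -0.098 at day 3. With 1 library left out, *Cxcl14* at 12 h ran from -0.14 to 0.22, *Ackr3* from -0.23 to 0.36 at 12 h, from -0.33 to 0.26 at 24 h and from -0.12 to 0.35 at day 3, and at day 7 *Cxcl12* from -0.29 to 0.19 and *Cx3cl1* from -0.36 to 0.077.

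Replicate letters showed no pairing when all pairs of libraries from different groups were pooled. Deviations from group means had a median correlation of 0.01 (-0.51 to 0.64, n = 226) for the same letter and -0.00 (-0.63 to 0.72, n = 820) for different letters. MCAO and sham libraries of the same time were not examined apart, so whether letters pair them is unknown. With the letter as a replicate block 0 members were called at 12 h and 1 against control at day 7 (*Cxcl1*, edgeR adjusted p = 0.00831), *Ackr3* at 12 h was -0.081, and genes called were 53 at 12 h and 4 for sham against control at 12 h. The block ended the *Cxcl2* calls at 12 h and day 3 and changed no other member's call against sham.

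Under spike-in scaling the median of all genes shifted by 0.139 at 24 h, -0.217 at day 3 and 0.143 at day 7 against sham, and genes called were 14 at 3 h and 39 at 24 h. It gave 6 for sham against control at 24 h, 1 for the change from day 3 to day 7, and 1 member against control at day 7. DESeq2 size factors gave 3 for that change. DESeq2 called 58, 179, 44 and 1096 genes against sham at 3 h, 12 h, 24 h and day 7, 120 and 463 against control at 24 h and day 7, 11, 14 and 1 for sham against control at 12 h, 24 h and day 3, and 5 and 57 for the last changes, with 2 members at 12 h and 1 against control at day 7. Without the filter genes called were 58, 171 and 55 at 3 h, 12 h and 24 h, 103 and 461 against control at 24 h and day 7, 4, 7, 1 and 1 for sham against control at 3 h, 24 h, day 3 and day 7, and 5, 6 and 37 for the changes. Members were then 1 at 3 h, 3 at 12 h, 5 at day 3, 4 against control at day 7 and 1 for sham against control at 3 h. With only the compared groups (fewer samples) genes called were 44, 13, 51, 339 and 302 against sham in time order, 126, 224 and 165 against control, 1, 23 and 4 for sham against control at 12 h, 24 h and day 3, and 1 and 1 for the first and last changes. Members were 1, 0, 1 and 1 at 3 h, 12 h, day 3 and day 7, and 1, 0 and 1 against control. The cause of these shifts was not tested.

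With each library left out in turn, genes called ran from 5 to 20, 21 to 102, 6 to 21, 441 to 1353 and 241 to 676 against sham in time order, from 32 to 51, 364 to 1075 and 82 to 318 against control, from 0 to 1, 3 to 9 and 2 to 4 for sham against control at 3 h, 12 h and 24 h, and from 2 to 5, 2 to 11 and 0 to 32 for the changes from 3 h to 12 h, 24 h to day 3 and day 3 to day 7. Members called ran from 0 to 1 at 12 h, 1 to 4 at day 3 and 0 to 2 at day 7, and from 1 to 2 at day 3 and 0 to 1 at day 7 against control. Without the only sham library that held counts, sham stood at 0 and the fitted log2 fold changes moved up. *Cxcl2* went from 5.37 to 6.94 at 3 h, from 8.87 to 10.35 at 12 h and from 7.45 to 8.92 at day 3. *Cxcr4* went from 2.37 to 5.13 at 3 h and from 4.91 to 6.40 at 12 h. *Cxcl10* went from 4.47 to 7.45 at 12 h, from 4.72 to 6.18 at day 3 and from 4.63 to 7.43 at day 7. *Cxcr4* at 12 h was 3.97 without MCAO replicate E. At this depth 1 count was worth 0.363 to 0.632 CPM, so *Cxcl1*, *Cxcl2* and *Cxcl10* in sham rested on a few counts.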

Other observations

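Choroid plexus markers, led by *Ttr*, summed to 499 CPM in control replicate A and to at most 53.7 CPM in any other library. Fibroblast and meningeal markers summed to 5491 CPM in MCAO day 7 replicate C, the library highest for *Cxcr4* and *Cxcl16* at that time, against 42.0 to 93.8 CPM in the day 7 shams, and 5 of 6 rose at day 7, such as the collagen gene *Col3a1* (log2 fold change 6.74 ± 1.07 SE, edgeR adjusted p = 4.57e-05). The astrocyte intermediate filament gene *Gfap* rose at 12 h, 24 h, day 3 and day 7, by 2.67 ± 0.38, 3.16 ± 0.40, 4.43 ± 0.42 and 3.10 ± 0.39 SE on the log2 scale (edgeR adjusted p = 5.6e-05, 2.2e-06, 5.36e-10 and 2.27e-06). Of 6 astrocyte markers, *Gfap* was the only call at 12 h and 24 h, while 2 were called at day 3 and 3 at day 7. The list medians at these times were -0.01, -0.05, 0.60 and 0.88 on the log2 scale.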
